A study of Mus musculus with 12 samples.

Results

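The genes described here are the glucose-sensing transcription factors ChREBP (Mlxipl) and MondoA (Mlxip), their shared partner Mlx, and Txnip and Arrdc4, a pair of arrestin-family genes that these factors are known to switch on. They were taken by symbol from a deposited table of FPKM (sequenced fragments per kilobase, corrected for how many fragments a library has), in which all 5 are listed among 24341 genes. RNA was sequenced from cells of C57Bl/6 adipose tissue immortalised with SV40, in 12 libraries that fall into 4 groups of 3. Adipocytes were taken on day 4 after an adipogenic cocktail with rosiglitazone, and preadipocytes on day 0. The groups were Acly-/- adipocytes, Aclyf/f adipocytes, Acly-/- preadipocytes and Aclyf/f preadipocytes, and the question was how gene expression during differentiation depends on Acly, which encodes ATP citrate lyase, the source of cytosolic acetyl-CoA from citrate. Aclyf/f cells carry a floxed but intact gene. Every group shares the strain and the SV40 immortalisation. The sources used here do not say how Acly was deleted, nor whether the 3 replicates of a group are independent cultures, clones or mice. P-values thus cover no more than the spread among the deposited libraries, which may be technical.

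ChREBP and MondoA each bind DNA as a pair with Mlx, at sites called carbohydrate response elements that are built from E-box half-sites. Phosphorylated sugars inside the cell activate both factors. ChREBP is best known in liver and adipose tissue, where it drives genes of fatty acid synthesis and sugar breakdown, while MondoA is widespread and is the main activator of Txnip and Arrdc4 in many cell types. Txnip and Arrdc4 proteins in turn restrain glucose uptake, so that their transcripts report glucose-derived metabolites and feed back on glucose entry.

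Acly itself averaged 12.4 ± 1.17 FPKM in Acly-/- adipocytes and 754 ± 52.5 FPKM in Aclyf/f adipocytes, and 12.1 ± 0.309 FPKM in Acly-/- preadipocytes and 86.9 ± 2.33 FPKM in Aclyf/f preadipocytes (SD, n = 3 each). Depth estimated from the steps of low values ran from 7.13 to 13.8 (in units of 1e+06 fragments). In Acly-/- preadipocyte replicate 3 the small nucleolar RNA Snord12 took 8.90% of the summed FPKM, and that library stands apart in this. Adipocyte markers (6 genes, mostly Fabp4, Lep at the floor of 0.01 FPKM in every group) summed to 5692 to 7078 FPKM in Acly-/- adipocytes and 9814 to 10577 FPKM in Aclyf/f adipocytes. In preadipocytes the sums were 193 to 229 FPKM in Acly-/- cells and 505 to 522 FPKM in Aclyf/f cells. Fabp4 averaged 6113 FPKM in Acly-/- and 8835 FPKM in Aclyf/f adipocytes, and the sums hide larger differences. In the same groups Adipoq averaged 60.7 and 544 FPKM, Lipe 26.3 and 110 FPKM, Cidec 181 and 448 FPKM, and Plin1 98.4 and 196 FPKM. Preadipocyte markers (6 genes, mostly Ly6a) summed to 692 to 738 FPKM in Acly-/- adipocytes, 134 to 199 FPKM in Aclyf/f adipocytes, 834 to 1155 FPKM in Acly-/- preadipocytes and 641 to 744 FPKM in Aclyf/f preadipocytes. Single genes did not all follow the sums. In Acly-/- and Aclyf/f preadipocytes Ly6a averaged 834 and 467 FPKM and Pdgfrb 104 and 87.4 FPKM, but Pdgfra 72.1 and 131 FPKM. In adipocytes, in the same order, Ly6a averaged 649 and 128 FPKM, Pdgfrb 34.6 and 12.4 FPKM, and Pdgfra 30.3 and 15.5 FPKM. Dlk1, Cd34 and Thy1 averaged at most 1.08 FPKM in any group. Cd34 and Thy1 had lower means in Acly-/- than in Aclyf/f adipocytes. Macrophage, endothelial, skeletal muscle and hepatocyte markers summed to no more than 5.36, 2.14, 5.99 and 1.75 FPKM in any library, and Ptprc, Itgam, Cdh5, Myod1, Myog and Ckm were at the floor in every group.

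ChREBP was near the floor in preadipocytes and rose in adipocytes, far less without Acly. Mlxipl (mm10 chr5:135106891-135138382) read 1.89, 2.26 and 2.07 FPKM in the 3 Acly-/- adipocyte libraries, against 27.3, 27.6 and 27.4 FPKM in the Aclyf/f adipocyte libraries. In preadipocytes it was close to undetectable, at 0.01 (the floor), 0.0752 and 0.0206 FPKM in Acly-/- libraries and 0.116, 0.0344 and 0.0539 FPKM in Aclyf/f libraries. Those preadipocyte values rest on at most about 2.99 fragments a library, so no fold against them is given, and Mlxipl passed the filter on low values only through the adipocyte libraries. Every Aclyf/f adipocyte library lay far above every Acly-/- adipocyte library, and both lay above all preadipocytes.

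**Figure D1:**
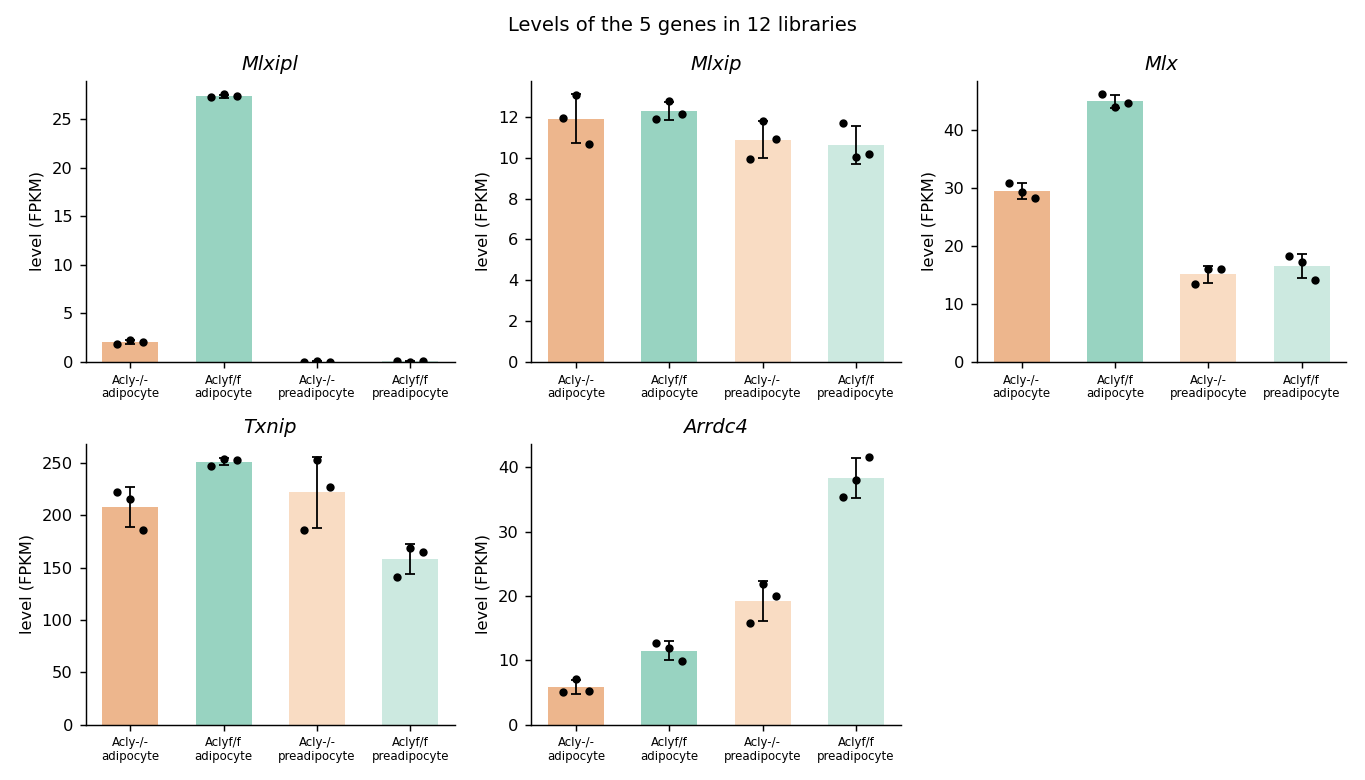
FPKM of the 5 genes (y axis, linear, from 0) in the 4 groups (x axis); bars are group means, error bars are SD and points are the 3 libraries of each group. Mlxipl stands at 27.4 FPKM in Aclyf/f adipocytes and 2.07 FPKM in Acly-/- adipocytes, Mlxip is near 11 to 12 FPKM in every group, and Arrdc4 is highest in Aclyf/f preadipocytes.

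Mlxipl averaged 2.07 ± 0.187 FPKM in Acly-/- adipocytes and 27.4 ± 0.155 FPKM in Aclyf/f adipocytes (SD, n = 3 each), a 13.2-fold lower mean. The difference of log2(FPKM + 1), the scale of every log2 value here, was -3.21 (SE 0.08, limma adjusted p = 1.00e-11). Mlxipl rose with differentiation in both genotypes, by 1.57 in Acly-/- cells (adjusted p = 2.19e-09) and by 4.73 in Aclyf/f cells (adjusted p = 1.54e-14). Because it passed the filter only through adipocyte libraries, where it is high, these higher calls are no independent evidence. With a pseudocount of 0.1 FPKM in place of 1 the increases were 4.03 in Acly-/- cells and 7.38 in Aclyf/f cells, so their size rests on the pseudocount. The increase differed between genotypes by -3.16 (SE 0.12, adjusted p = 9.46e-10), and by -3.35 with that smaller pseudocount. In FPKM the gain was 2.04 in Acly-/- cells and 27.3 in Aclyf/f cells, so the first was 7.46% of the second. Between Acly-/- and Aclyf/f preadipocytes no difference was detectable at these levels (-0.04, adjusted p = 0.701, and -0.31, adjusted p = 0.286, with the smaller pseudocount). Adipocyte markers above the floor, singly and summed, were lower in Acly-/- than in Aclyf/f adipocytes, as given above. The sums of preadipocyte markers were higher, though not every single gene was. The part of these marker differences in the Mlxipl difference was not tested. In bulk libraries, fewer cells of a type and less RNA per cell cannot be told apart.

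Mouse Mlxipl has a pair of known first exons. The downstream one starts the long alpha form, and the upstream one, 17001 bases away, starts the shorter beta form, whose promoter is known to answer to ChREBP itself. The deposited row begins at the downstream start, so the upstream exon lies outside its stated locus and the forms cannot be told apart in these values. The bases 250 to 1 before each start are shown from RefSeq (GRCm38.p6), since this is where the forms differ; capitals mark the E-box CACGTG, searched on both strands.
Mlxipl upstream start, chr5:135089640-135089889, plus strand: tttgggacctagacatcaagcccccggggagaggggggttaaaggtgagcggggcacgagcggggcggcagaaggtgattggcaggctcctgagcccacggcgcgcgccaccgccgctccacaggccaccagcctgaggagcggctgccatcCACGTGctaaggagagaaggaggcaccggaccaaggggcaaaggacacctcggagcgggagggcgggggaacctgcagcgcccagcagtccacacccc
Mlxipl downstream start, chr5:135106641-135106890, plus strand: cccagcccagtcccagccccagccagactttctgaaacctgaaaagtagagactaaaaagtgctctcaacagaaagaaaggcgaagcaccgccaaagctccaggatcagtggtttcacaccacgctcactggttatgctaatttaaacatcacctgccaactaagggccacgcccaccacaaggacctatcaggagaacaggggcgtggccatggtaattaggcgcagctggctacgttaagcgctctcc
The upstream window holds the E-box at bases -98 to -93 from its start, and the downstream window holds none. Of 32544 RefSeq promoter windows of 300 bases (250 before the start and 50 from it), 7.17% hold that E-box, and a match is no proof of binding.

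MondoA was level across the 4 groups. Mlxip (chr5:123394798-123457931) read 11.96, 13.1 and 10.7 FPKM in Acly-/- adipocytes, 11.9, 12.8 and 12.2 FPKM in Aclyf/f adipocytes, 9.94, 11.8 and 10.9 FPKM in Acly-/- preadipocytes and 11.7, 10.0 and 10.2 FPKM in Aclyf/f preadipocytes. The ranges of the genotypes overlapped at each stage. It passed the test in none of the 5 contrasts: the differences were 0.03 in preadipocytes (limma adjusted p = 0.812), -0.04 in adipocytes (adjusted p = 0.704), and, adipocytes minus preadipocytes, 0.12 in Acly-/- cells (adjusted p = 0.287) and 0.19 in Aclyf/f cells (adjusted p = 0.0746). The last was past the threshold without Aclyf/f preadipocyte replicate 1, at 0.26 (adjusted p = 0.0321), and its groups did not overlap. The increase differed between genotypes by -0.08 (SE 0.13, adjusted p = 0.651).

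Mlx, without which neither factor binds DNA, rose with differentiation in both genotypes and was lower in Acly-/- adipocytes. It read 30.9, 29.3 and 28.2 FPKM in Acly-/- adipocytes and 46.1, 44.0 and 44.7 FPKM in Aclyf/f adipocytes. Preadipocytes held 13.4, 16.0 and 15.9 FPKM in Acly-/- libraries and 18.3, 17.2 and 14.1 FPKM in Aclyf/f libraries. The adipocyte genotypes were fully apart while those of preadipocytes overlapped.

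Mlx averaged 29.4 ± 1.35 FPKM in Acly-/- adipocytes and 44.9 ± 1.08 FPKM in Aclyf/f adipocytes, 1.53-fold lower (log2 difference -0.59, SE 0.09, limma adjusted p = 0.000139). Its level was 1.95-fold higher in adipocytes than in preadipocytes in Acly-/- cells (0.92, adjusted p = 1.61e-06) and 2.72-fold higher in Aclyf/f cells (1.40, adjusted p = 1.13e-08). These increases differed by -0.48 (SE 0.13, adjusted p = 0.00943), and the gain in FPKM without Acly was 50.4% of the gain with it. In preadipocytes the genotypes did not pass the test (-0.12, adjusted p = 0.350). Mlx and Psmc3ip, a recombination factor on the other strand, overlap by 385 bases, and the handling of strand is not stated, so shared fragments may be split between them. Psmc3ip averaged 11.02 FPKM in Acly-/- adipocytes and 21.4 FPKM in Aclyf/f adipocytes (-0.91, adjusted p = 5.29e-06), and 12.9 FPKM in Acly-/- preadipocytes and 13.1 FPKM in Aclyf/f preadipocytes. The part of that overlap in the Mlx values was not tested. The 250 bases before the RefSeq start of Mlx are shown because they hold an E-box CACGTG (capitals), at -40 to -35. Of all RefSeq promoter windows 7.17% hold that E-box, and a match is no proof of binding.
Mlx, chr11:101087040-101087289, plus strand: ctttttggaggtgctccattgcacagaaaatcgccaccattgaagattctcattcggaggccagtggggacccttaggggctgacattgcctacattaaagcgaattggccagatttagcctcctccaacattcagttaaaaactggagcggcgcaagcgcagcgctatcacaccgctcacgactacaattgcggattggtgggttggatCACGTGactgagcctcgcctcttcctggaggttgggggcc

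Within a library, the balance of the factors followed Mlxipl. Per length, Mlxipl made up 13.6%, 14.8% and 16.2% of the Mlxipl plus Mlxip FPKM in Acly-/- adipocytes, against 69.6%, 68.3% and 69.2% in Aclyf/f adipocytes, and under 1% in every preadipocyte library. ChREBP transcripts therefore outnumbered MondoA transcripts in Aclyf/f adipocytes, whereas MondoA transcripts outnumbered ChREBP transcripts in the other groups. The sum of both per Mlx FPKM was 0.475 ± 0.0421 in Acly-/- adipocytes and 0.884 ± 0.0341 in Aclyf/f adipocytes, and 0.723 ± 0.0307 in Acly-/- preadipocytes and 0.652 ± 0.0693 in Aclyf/f preadipocytes (SD, n = 3 each). The adipocyte genotypes did not overlap in either ratio. Ratios are given as descriptions and were not tested.

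**Figure D2:**
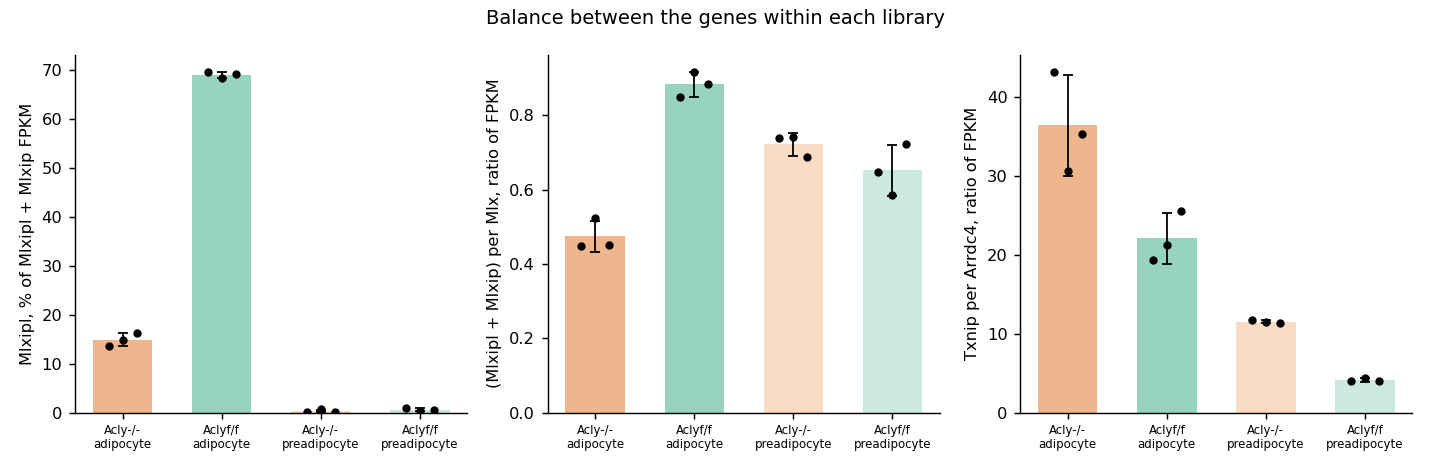
Ratios of FPKM within each library (y axes, linear, from 0) in the 4 groups (x axes): Mlxipl as a percent of Mlxipl plus Mlxip, that sum per Mlx, and Txnip per Arrdc4; bars are means, error bars SD, points the 3 libraries. The Mlxipl share is 14.9% in Acly-/- adipocytes and 69.1% in Aclyf/f adipocytes, and Txnip per Arrdc4 is higher without Acly at each stage.

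The arrestin-family targets moved in opposite directions in preadipocytes. Txnip, whose protein binds thioredoxin and promotes removal of glucose transporters from the cell surface, was higher without Acly in preadipocytes. In adipocytes it was lower without Acly, by a call that only just passed the threshold. Arrdc4, its close relative, was lower without Acly at both stages. Txnip was the most abundant of the 5 genes in every group, above 98.1% to 98.8% of all genes in the table.

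Txnip (chr3:96557957-96561883 in GENCODE) read 222, 215 and 186 FPKM in Acly-/- adipocytes and 247, 254 and 252 FPKM in Aclyf/f adipocytes. Preadipocytes read 186, 252 and 227 FPKM in Acly-/- libraries and 141, 168 and 165 FPKM in Aclyf/f libraries. At each stage the genotypes did not overlap, with Acly-/- libraries below the others in adipocytes and above them in preadipocytes. Acly-/- libraries of the 2 stages overlapped.

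In preadipocytes Txnip averaged 222 ± 33.6 FPKM in Acly-/- cells and 158 ± 14.7 FPKM in Aclyf/f cells, 1.40-fold higher (log2 difference 0.48, SE 0.11, limma adjusted p = 0.00302). Without Acly-/- preadipocyte replicate 3, the library with the high Snord12, the difference was 0.46 (adjusted p = 0.0114). In adipocytes it averaged 208 ± 19.3 FPKM in Acly-/- cells and 251 ± 3.72 FPKM in Aclyf/f cells, 1.21-fold lower (-0.28, SE 0.11, adjusted p = 0.0446), which only just passed the threshold. That call was lost without Acly-/- adipocyte replicate 2 or 3 (adjusted p = 0.0610 and 0.173), without Aclyf/f adipocyte replicate 1, 2 or 3 (0.0688, 0.0995 and 0.0917), and without Aclyf/f preadipocyte replicate 2 or 3 (0.0510 and 0.0511). It was also lost with quantile normalization (adjusted p = 0.149) and with no filter on low values (0.141). From day 0 to day 4 Txnip rose 1.59-fold in Aclyf/f cells (0.67, adjusted p = 7.73e-05), while the value in Acly-/- cells was -0.09 (SE 0.11, adjusted p = 0.506). These differed by -0.76 (SE 0.15, adjusted p = 0.00123). Gm15441, an antisense gene that overlaps all 3927 bases of Txnip, averaged 0.279 FPKM in Acly-/- adipocytes, 0.450 FPKM in Aclyf/f adipocytes, 0.676 FPKM in Acly-/- preadipocytes and 0.612 FPKM in Aclyf/f preadipocytes; without stated strand its fragments and those of Txnip cannot be told apart.

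Arrdc4 (chr7:68736994-68749238) read 5.14, 7.02 and 5.25 FPKM in Acly-/- adipocytes, against 12.7, 11.9 and 9.85 FPKM in Aclyf/f adipocytes. Preadipocytes held more, at 15.9, 21.8 and 19.9 FPKM in Acly-/- libraries and 35.3, 38.0 and 41.6 FPKM in Aclyf/f libraries. No pair of groups overlapped, from Aclyf/f preadipocytes at the top to Acly-/- adipocytes at the bottom.

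The Arrdc4 mean was 1.98-fold lower in Acly-/- than in Aclyf/f adipocytes (5.80 ± 1.06 and 11.5 ± 1.495 FPKM, log2 difference -0.88, SE 0.13, limma adjusted p = 9.15e-05). In preadipocytes it was 1.99-fold lower (19.2 ± 3.05 FPKM in Acly-/- cells and 38.3 ± 3.13 FPKM in Aclyf/f cells, -0.97, SE 0.13, adjusted p = 6.86e-05). Adipocytes held a mean 3.31-fold lower than preadipocytes in Acly-/- cells (-1.57, adjusted p = 2.51e-07) and 3.33-fold lower in Aclyf/f cells (-1.66, adjusted p = 7.55e-08). These decreases differed by 0.09 (SE 0.19, adjusted p = 0.728). Txnip per Arrdc4 was 36.5 ± 6.37 in Acly-/- adipocytes and 22.1 ± 3.21 in Aclyf/f adipocytes, and 11.6 ± 0.157 in Acly-/- preadipocytes and 4.13 ± 0.259 in Aclyf/f preadipocytes, with no overlap at either stage.

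The promoters of these targets are shown because ChREBP and MondoA are known to act through them. Capitals mark E-boxes or a pair of half-sites, CACGNG or CNCGTG in any orientation, with 5 bases between them; an E-box also counts as a half-site.
Txnip, chr3:96557707-96557956, plus strand: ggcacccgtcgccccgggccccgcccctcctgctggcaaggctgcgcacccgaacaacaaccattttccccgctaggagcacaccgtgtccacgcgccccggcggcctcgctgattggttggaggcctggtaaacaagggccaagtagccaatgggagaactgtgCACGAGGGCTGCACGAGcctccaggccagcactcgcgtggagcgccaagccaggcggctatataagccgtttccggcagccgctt
Arrdc4, chr7:68749239-68749488, minus strand: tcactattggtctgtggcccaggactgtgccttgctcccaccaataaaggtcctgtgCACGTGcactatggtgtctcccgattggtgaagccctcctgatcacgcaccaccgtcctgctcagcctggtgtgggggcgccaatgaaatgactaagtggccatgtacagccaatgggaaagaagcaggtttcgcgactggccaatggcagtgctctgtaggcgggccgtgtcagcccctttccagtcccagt
Txnip holds a half-site pair at -85 to -69 from its start, both half-sites reading CACGAG. Of all windows, 0.0830% hold a half-site pair of any letters and orientation allowed above. That pattern was chosen after the promoters had been seen, so its rarity is no evidence about Txnip. Arrdc4 holds an E-box at -193 to -188 and no half-site pair. The ordered form, CACGNG and then CNCGTG, occurs in 0.0461% of windows and in none of the 6 windows of the 5 genes. The Mlxip window holds none of these motifs, which says only that the letters are not in it.

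**Figure D3:**
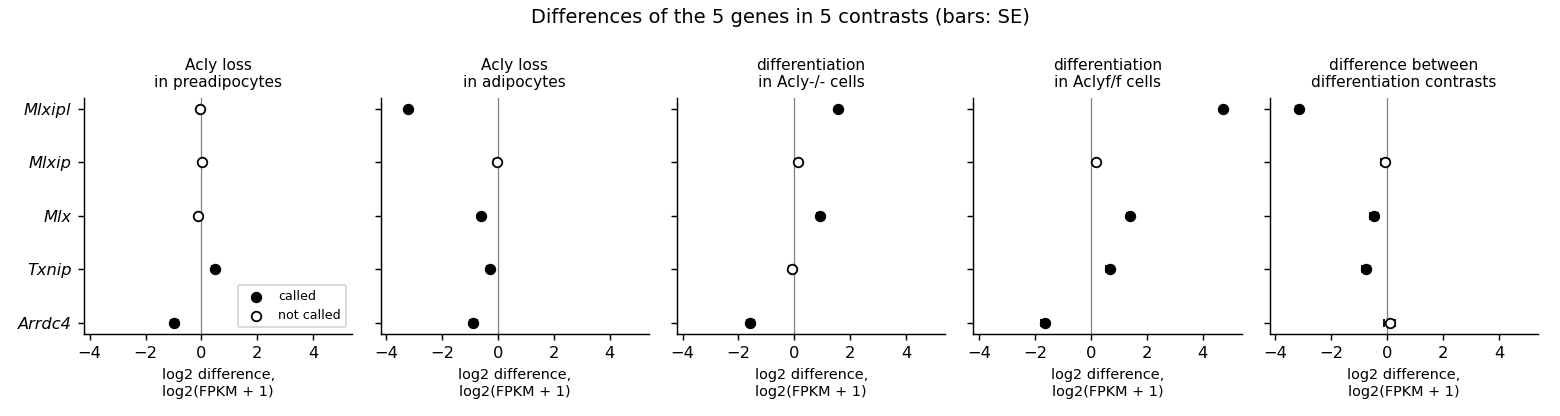
Differences of log2(FPKM + 1) for the 5 genes (rows) in the 5 contrasts (panels), Acly-/- minus Aclyf/f or adipocyte minus preadipocyte, with SE bars that are mostly hidden by the points; filled points passed the test. Mlxipl spans -3.21 to 4.73, Mlxip has an open point in all 5 panels, and Txnip changes side between the preadipocyte and the adipocyte panel.

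Across the 5 genes, Acly loss in adipocytes gave 4 lower calls and no higher call. The lower calls were Mlxipl, Mlx, Arrdc4 and, only just past the threshold and lost under several alternatives, Txnip. Of all 11777 genes tested, 25.6% were called higher and 29.2% lower in that comparison. In preadipocytes there was 1 higher call (Txnip) and 1 lower call (Arrdc4), against 19.7% and 22.4% of all genes tested. Differentiation gave 2 higher calls and 1 lower call in Acly-/- cells, where 30.4% and 31.0% of all genes were called. In Aclyf/f cells it gave 3 higher calls and 1 lower call, where 36.5% and 36.0% were called. The higher calls in each genotype include Mlxipl, which passed the filter on low values only through adipocyte libraries. The change with differentiation was smaller (or more negative) in Acly-/- cells for 3 genes (Mlxipl, Mlx and Txnip) and larger for none, against 26.4% and 23.7% of all genes. These comparisons share libraries, so their values stand side by side and are not independent. With so many genes called in each, a call by itself does not set a gene apart.

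The order of levels per length changed with the group. In Acly-/- adipocytes it ran Txnip, Mlx, Mlxip, Arrdc4, Mlxipl, all apart. In Aclyf/f adipocytes Mlxipl moved up to the place after Mlx, ahead of Mlxip and Arrdc4, whose ranges overlapped. Arrdc4 stood after Txnip in both preadipocyte groups, overlapping Mlx in Acly-/- cells and apart from it in Aclyf/f cells, with Mlxipl last. By rank among all genes in the table, Mlxipl lay above 58.2% of them in Acly-/- adipocytes and above 86.3% in Aclyf/f adipocytes.

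Genes with the most similar profile over the 12 libraries were found by Pearson's r of log2(FPKM + 1), which here mostly reflects the 4 group means. For Mlxipl they were Thrsp (r = 0.998), Tmem182, Tmem179, Ybx2 and Pnpla3 (r = 0.997). Thrsp, the lipogenic protein Spot14, averaged 7.72 FPKM in Acly-/- adipocytes and 365 FPKM in Aclyf/f adipocytes, and Pnpla3, a lipid droplet enzyme, 1.30 FPKM and 20.3 FPKM in the same groups. For Mlx they were Isoc2a (r = 0.992), Mt1, Aldh1l1, Mgst3 and Suclg1. Txnip was closest to Lipt1 (r = 0.960), Mocos, Rnf141, Poll and Nudt13. Arrdc4 was closest to Nfatc4 (r = 0.986), Pacs1, Gstt1, Tead2 and Dkk2, and Mlxip to Tgfbrap1 (r = 0.885), Tldc1, Mgst2, Lrrc48 and Ghdc. By Spearman's rho the top 5 shared 3 of these for Mlxip, 2 for Txnip, 2 for Arrdc4 and 0 for Mlxipl and Mlx, so single names depend on the measure.

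Known target genes were grouped by role. Counts in this and the following lists stand against the shares of all genes tested that were called higher and lower. These were 19.7% and 22.4% for Acly loss in preadipocytes and 25.6% and 29.2% in adipocytes. With differentiation they were 30.4% and 31.0% in Acly-/- cells and 36.5% and 36.0% in Aclyf/f cells. For the difference between genotypes they were 23.7% larger and 26.4% smaller in Acly-/- cells. The lipogenic targets of ChREBP, which make and esterify fatty acids, were lower without Acly in adipocytes: of 13 listed and tested, 11 were called lower and 1 higher, with a median difference of -1.45 against -0.02 over all genes tested, of which 29.2% were called lower and 25.6% higher. Thrsp, Gpd1 and Pnpla3 passed the filter on low values only through adipocyte libraries. Thrsp was 47.3-fold lower (7.72 FPKM in Acly-/- and 365 FPKM in Aclyf/f adipocytes, limma adjusted p = 1.70e-12) and Gpd1, which makes the glycerol backbone, 17.5-fold lower (4.57 and 80.0 FPKM in the same groups, adjusted p = 2.98e-12). Mttp, a lipoprotein assembly factor, was the gene called higher (2.62 FPKM in Acly-/- and 1.21 FPKM in Aclyf/f adipocytes, adjusted p = 0.000145). With a filter at a mean of 3 FPKM Mttp was not tested, so that setting is no check of its call. In preadipocytes 6 of the 13 were called higher and 0 lower (median 0.20, against -0.01 over all genes), where 19.7% and 22.4% of all genes were called. Fasn, fatty acid synthase, was 3.43-fold higher (75.3 FPKM in Acly-/- and 21.9 FPKM in Aclyf/f preadipocytes, adjusted p = 2.54e-07), and Scd1, a fatty acid desaturase, 3.08-fold higher (74.7 and 24.3 FPKM in the same groups, adjusted p = 1.05e-08). In those preadipocytes Mlxipl was close to the floor, as given above. The lower adipocyte marker sums of Acly-/- adipocytes move with this list and with the sugar metabolism and glucose entry lists; their part in these differences was not tested.

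With differentiation, 11 lipogenic targets were called higher and 2 lower in each genotype, with a median of 1.23 in Acly-/- cells and 4.36 in Aclyf/f cells (0.00 over all genes in each). Thrsp, Gpd1 and Pnpla3, which passed the filter on low values only through adipocyte libraries, count in the 11 and in the medians. Their higher calls with differentiation are thus no independent evidence. Of the 13, the change was smaller (or more negative) in Acly-/- cells for 12 and larger for 1 (median of the difference -1.99). Thrsp differed by -5.40 (adjusted p = 1.99e-10) and Fasn by -4.45 (adjusted p = 1.51e-09). Elovl6, a fatty acid elongase, fell with differentiation to 4.45 FPKM in Acly-/- adipocytes, against 16.5 FPKM in Acly-/- preadipocytes (adjusted p = 5.85e-09), and to 4.34 FPKM in Aclyf/f adipocytes, against 10.1 FPKM in Aclyf/f preadipocytes (adjusted p = 3.21e-07). The second lower gene was Acacb in Acly-/- cells and Mttp in Aclyf/f cells. In each genotype the lower count was 1 without replicate 3 of its preadipocytes. It was also 1 with a filter at a mean of 3 FPKM, where neither Acacb nor Mttp was tested.

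**Figure D4:**
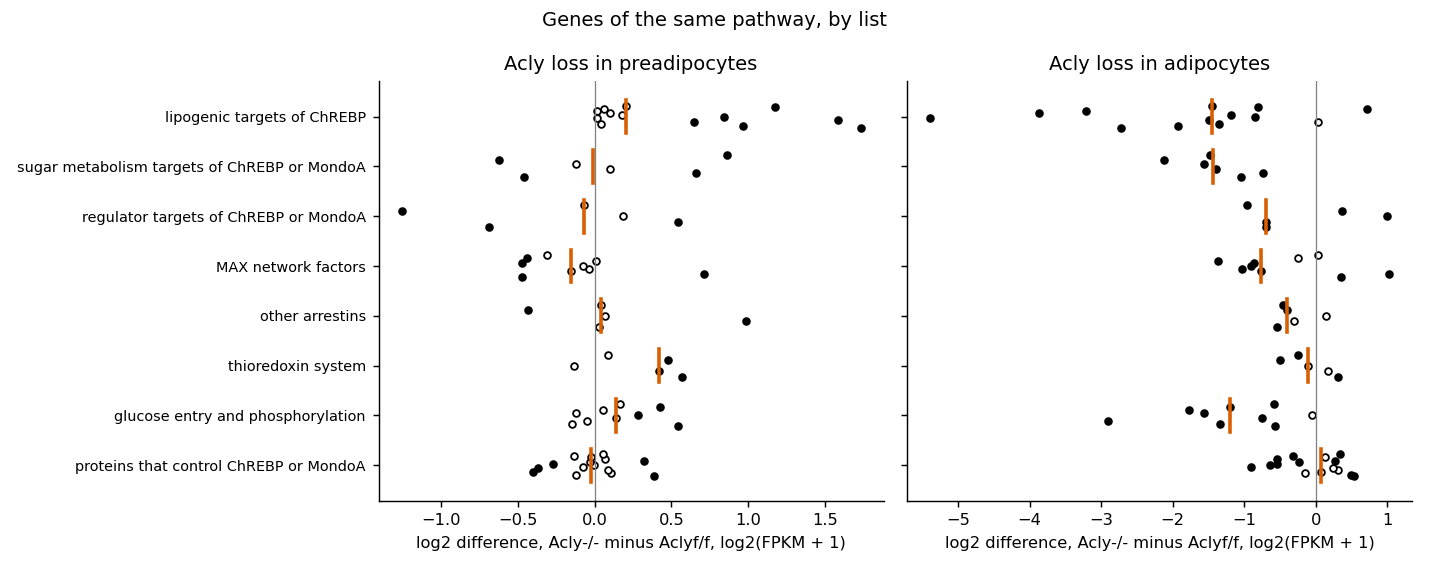
Acly-/- minus Aclyf/f differences of log2(FPKM + 1) (x axes) for the tested genes of 8 lists (rows), in preadipocytes (left) and adipocytes (right); filled points passed the test, and orange lines are list medians. In adipocytes the lipogenic, sugar metabolism and glucose entry medians lie at -1.45, -1.44 and -1.19.

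Sugar metabolism targets were lower without Acly in adipocytes. Of 11 listed, 6 were tested; Pklr, a liver target, sat at the floor in every group. All 6 were called lower without Acly in adipocytes (median -1.44), where 29.2% of all genes were called lower. Pfkfb3, which makes a fructose bisphosphate that activates glycolysis, averaged 6.47 FPKM in Acly-/- and 31.6 FPKM in Aclyf/f adipocytes, 4.88-fold lower (limma adjusted p = 6.15e-10). Hexokinase Hk2 averaged 19.1 and 58.6 FPKM in the same groups, 3.06-fold lower (adjusted p = 5.98e-08). In preadipocytes 2 were higher and 2 lower (median -0.01): Ldha, lactate dehydrogenase, was 1.82-fold higher (776 FPKM in Acly-/- and 427 FPKM in Aclyf/f cells, adjusted p = 3.04e-06) and Pfkfb3 1.72-fold lower (2.88 and 4.96 FPKM in the same groups, adjusted p = 8.76e-05). The other lower gene, the fructose kinase Khk, had overlapping groups (adjusted p = 0.0441). The lower count was 1 without Acly-/- adipocyte replicate 1, Aclyf/f adipocyte replicate 2, Acly-/- preadipocyte replicate 1 or 2, or Aclyf/f preadipocyte replicate 1 or 3, and also with no filter, with quantile normalization and with only the groups compared in the fit.

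With differentiation, 5 sugar metabolism targets were called higher and 1 lower in Acly-/- cells (median 0.60), and 6 higher and 0 lower in Aclyf/f cells (median 1.94). The 5 became 3 without Acly-/- adipocyte replicate 3 or Acly-/- preadipocyte replicate 1 or 2, with no filter and with only the groups compared. Ldha was the lower gene, at 399.6 FPKM in Acly-/- adipocytes and 776 FPKM in Acly-/- preadipocytes (adjusted p = 3.26e-07). Transaldolase Taldo1 was 2.66-fold higher in Acly-/- cells and 7.59-fold higher in Aclyf/f cells. The change was smaller (or more negative) in Acly-/- cells for 5 of the 6 and larger for 0.

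Glucose entry and phosphorylation genes were nearly all lower without Acly in adipocytes. Of 9 tested, 8 were called lower and 0 higher (median -1.19, against 29.2% and 25.6% of all genes called). Of the 9, 3 passed the filter on low values only through adipocyte libraries, 1 of them only through Aclyf/f adipocytes. Slc2a4, the insulin-responsive transporter GLUT4, averaged 11.7 FPKM in Acly-/- and 93.7 FPKM in Aclyf/f adipocytes, 8.04-fold lower (limma adjusted p = 2.39e-11). In preadipocytes 3 were called higher and 0 lower (median 0.14), among them Slc2a1, the basal transporter GLUT1, with 70.5 FPKM in Acly-/- and 48.0 FPKM in Aclyf/f cells (adjusted p = 0.000177). Differentiation gave 4 higher and 2 lower in Acly-/- cells and 7 higher and 1 lower in Aclyf/f cells. Higher calls of genes that passed the filter only through adipocyte libraries are no independent evidence. The change was smaller (or more negative) in Acly-/- cells for all 9. Slc2a1 fell 2.21-fold in Acly-/- cells, to 31.9 FPKM in adipocytes. It averaged 47.9 FPKM in Aclyf/f adipocytes and 48.0 FPKM in Aclyf/f preadipocytes. Hk2 is in this list and in the one before.

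Regulator targets were mixed. Of 5 tested, 3 were called lower and 2 higher without Acly in adipocytes (median -0.69), against 29.2% and 25.6% of all genes tested. The hormone gene Fgf21 averaged 2.36 FPKM in Acly-/- and 5.52 FPKM in Aclyf/f adipocytes (adjusted p = 3.19e-06) and the circadian repressor Bhlhe40 61.4 and 100.2 FPKM in the same groups (adjusted p = 7.86e-06). Its relative Bhlhe41 was higher (1.84 and 0.435 FPKM in the same groups, adjusted p = 6.26e-06), as was Rgs16, a brake on G-protein signalling, at very low levels (0.485 and 0.151 FPKM in the same groups, adjusted p = 0.0113). Bhlhe41 passed the filter on low values only through Acly-/- adipocytes, the group where it is high, so its call is no independent evidence. The higher count was 1 without Acly-/- adipocyte replicate 1 or 2 and 0 without replicate 3. With a filter at a mean of 3 FPKM, fewer of the 5 were tested and 0 were called higher. In preadipocytes 1 was higher (Bhlhe40, adjusted p = 0.000117) and 2 were lower: Rgs16 was 3.33-fold lower (1.48 FPKM in Acly-/- and 4.94 FPKM in Aclyf/f cells) and Klf10, a repressor that answers to MondoA and ChREBP, 1.65-fold lower (14.7 and 24.3 FPKM in the same groups, adjusted p = 2.32e-05). With differentiation 3 were higher and 1 lower in Acly-/- cells, and 2 higher and 1 lower in Aclyf/f cells. Fgf21 and Bhlhe41 passed the filter on low values only through adipocyte libraries, where they are high. Their higher calls with differentiation are thus no independent evidence. With the filter at a mean of 3 FPKM there was 1 higher and 0 lower in each genotype, and 1 lower in preadipocytes.

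Mlx also pairs with some of the MXD repressors, which links it to the MAX network of Myc partners. The list covers that network and is not a list of Mlx partners. Of 9 tested in adipocytes, 5 were called lower and 2 higher without Acly (median -0.77), against 29.2% and 25.6% of all genes tested. Myc was 2.07-fold higher (53.6 FPKM in Acly-/- and 25.9 FPKM in Aclyf/f adipocytes, limma adjusted p = 5.95e-07) and its antagonist Mxi1 2.69-fold lower (16.2 and 43.5 FPKM in the same groups, adjusted p = 8.73e-09). In preadipocytes 1 was higher, again Myc (39.1 FPKM in Acly-/- and 23.5 FPKM in Aclyf/f cells, adjusted p = 3.11e-05), and 3 were lower, with Mxd4 and Max 1.41-fold lower each. Differentiation gave 4 higher and 1 lower in Acly-/- cells and 4 higher and 3 lower in Aclyf/f cells. Among the higher genes, Mycl passed the filter on low values only through adipocyte libraries, where it is high. Its calls with differentiation are thus no independent evidence. Mxi1 rose 3.51-fold in Aclyf/f cells (adjusted p = 1.24e-10), and its change was smaller in Acly-/- cells by -1.38 (adjusted p = 3.55e-07).

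The other arrestin genes were mixed. In adipocytes 3 of 5 tested were called lower without Acly and 0 higher (median -0.41), where 29.2% of all genes were called lower and 25.6% higher. The lower calls were led by Arrdc1, an adaptor for ubiquitin ligases (5.57 FPKM in Acly-/- and 8.58 FPKM in Aclyf/f cells, limma adjusted p = 0.00296). In preadipocytes Arrdc2 was 2.33-fold higher (6.66 FPKM in Acly-/- and 2.86 FPKM in Aclyf/f cells, adjusted p = 6.86e-05) and Arrb1, a beta-arrestin, 1.41-fold lower. Arrdc2 rose with differentiation in Aclyf/f cells (2.91-fold, adjusted p = 1.33e-06), one of 3 higher calls there with 0 lower. In Acly-/- cells there was 1 higher call and 1 lower call; the higher count was 2 without Acly-/- adipocyte replicate 3, Aclyf/f adipocyte replicate 1 or 3, or Aclyf/f preadipocyte replicate 1 or 3, and with a filter at a mean of 3 FPKM or only the groups compared. In Aclyf/f cells the lower count was 1 without Aclyf/f adipocyte replicate 1.

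Txn1, the gene of the thioredoxin that the Txnip protein binds, was called higher without Acly at both stages. Txn1 averaged 476 FPKM in Acly-/- and 320.1 FPKM in Aclyf/f preadipocytes (limma adjusted p = 0.000366) and 342 FPKM in Acly-/- and 275 FPKM in Aclyf/f adipocytes (adjusted p = 0.0138); the adipocyte call was lost without Acly-/- adipocyte replicate 3 or Aclyf/f adipocyte replicate 2 or 3. Of the 5 genes of the thioredoxin system, 3 were higher and 0 lower in preadipocytes (median 0.42). In adipocytes 1 was higher and 2 lower (median -0.11), namely the reductases Txnrd2 (adjusted p = 0.00273) and Txnrd3 (adjusted p = 0.0421). The lower count was 1 without Acly-/- adipocyte replicate 1 or 2 or any Aclyf/f adipocyte library, and also with a pseudocount of 0.1 FPKM, with no filter, with quantile normalization and with a replicate block. Differentiation gave 3 higher and 2 lower in Acly-/- cells and 3 higher and 1 lower in Aclyf/f cells. The 3 in Acly-/- cells became 1 without Acly-/- adipocyte replicate 3 or Acly-/- preadipocyte replicate 2, and with no filter. The 1 lower in Aclyf/f cells became 2 without Acly-/- adipocyte replicate 3, Aclyf/f adipocyte replicate 1, Acly-/- preadipocyte replicate 1 or 3, or Aclyf/f preadipocyte replicate 3, with each of the 3 other scalings and with only the groups compared.

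Genes of proteins that control ChREBP or MondoA, such as 14-3-3 proteins, the O-GlcNAc enzymes and the LXR receptors, did not lean one way. Of 15 tested, 4 were called higher and 6 lower without Acly in adipocytes (median 0.08), and 2 higher and 3 lower in preadipocytes (median -0.02). Of all genes tested, 25.6% were called higher and 29.2% lower in adipocytes, and 19.7% and 22.4% in preadipocytes. Ogt, which adds O-GlcNAc to ChREBP, was higher without Acly at both stages: 44.0 FPKM in Acly-/- and 30.4 FPKM in Aclyf/f adipocytes (limma adjusted p = 0.000183), and 51.8 FPKM in Acly-/- and 39.4 FPKM in Aclyf/f preadipocytes (adjusted p = 0.00288). Prkaa2, a subunit of AMP-activated kinase among the lower genes, passed the filter only through Aclyf/f adipocytes. Libraries brought to the same FPKM sum gave 2 higher calls in adipocytes and 0 in preadipocytes. Nr1h2, LXR beta, averaged 26.7 FPKM in Acly-/- and 42.4 FPKM in Aclyf/f adipocytes (adjusted p = 0.000162). Nr1h3, LXR alpha, an activator of the Mlxipl gene, rose with differentiation 23.0-fold in Acly-/- cells (28.7 FPKM in adipocytes and 1.25 FPKM in preadipocytes, adjusted p = 1.94e-12) and 24.8-fold in Aclyf/f cells (42.6 FPKM in adipocytes and 1.72 FPKM in preadipocytes, adjusted p = 3.55e-13). Differentiation gave 4 higher and 6 lower in Acly-/- cells and 6 higher and 6 lower in Aclyf/f cells, where 3 were higher without Aclyf/f adipocyte replicate 2 or 3.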

How the data were processed

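The authors deposited 1 table of FPKM values, 1 column per library, per the file headers. Tools listed, without roles, in the submitters' processing notes are Cufflinks 2.2.1, Bowtie2 2.2.6 and bcl2fastq, and the build is mm10. The sources used here do not state the gene annotation, the filter or the handling of strand. The deposited FPKM have a floor of 0.01, on which 9384 to 10418 genes per library sit. Locus starts were raised by 1, since 11860 of 23027 symbols matched to RefSeq on the same chromosome began 1 base lower.

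From these values, 11777 genes were tested, those that reached 1 FPKM in 3 or more of 12 libraries, all 5 described genes among them. The fit was limma 3.58.1 (R 4.3.3) on log2(FPKM + 1), a scale that shrinks changes of low genes, with a mean per group and a variance trend in empirical Bayes moderation. Benjamini-Hochberg adjustment covered every tested gene in each of 5 contrasts, and calls needed an adjusted p below 0.05. The fit and the depth estimate were tested on simulated data. Depth was estimated from the steps of values under 0.3 FPKM, so it is approximate and covers no other error. Figures and tables used Python 3.11.15, pandas 2.3.3 and matplotlib 3.10.9.

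The genes and lists were chosen with earlier results of these data known, and the lists are described by counts and medians with no test of their own. Of each list, at most 2 higher and 2 lower called genes per contrast were named, those with the largest differences. The half-site pair in any orientation was chosen after the promoters had been seen, and Pklr was named after its values were seen. Promoters are RefSeq windows on GRCm38.p6, found for all 5 genes. Alternatives were the pseudocount (0.1 FPKM), no filter or a mean of at least 3 FPKM, quantile, same-sum and median-of-ratios scaling, no variance trend, only the groups compared, a replicate block, and leaving out each library.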

Additional observations from a re-analysis of the deposited data

Results flagged for a closer look

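In 3 of the 5 genes the change with differentiation differed between the genotypes by a test of the difference itself. On the log2(FPKM + 1) scale Mlxipl rose by 1.57 in Acly-/- cells and by 4.73 in Aclyf/f cells. The difference was -3.16 (limma adjusted p = 9.46e-10). With a pseudocount of 0.1 FPKM these values were 4.03, 7.38 and -3.35. Mlxipl passed the filter on low values only through adipocyte libraries, so its higher calls with differentiation are no independent evidence. Mlx rose by 0.92 in Acly-/- cells and by 1.40 in Aclyf/f cells, a difference of -0.48 (adjusted p = 0.00943). Txnip stood at -0.09 in Acly-/- cells, which did not pass the test, and rose by 0.67 in Aclyf/f cells, a difference of -0.76 (adjusted p = 0.00123).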

How the results depend on the processing

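Of 520 alternative values for the 5 genes, 499 kept their direction and their side of the threshold. The lower Txnip call in adipocytes was lost with no filter (-0.28, adjusted p = 0.141), quantile normalization (-0.21, adjusted p = 0.149), median-of-ratios scaling (-0.27, adjusted p = 0.0501) and no variance trend (-0.28, adjusted p = 0.0547); leaving out single libraries gave -0.33 to -0.20 (adjusted p = 0.0184 to 0.173). Mlxip, not called, turned sign in preadipocytes with the same FPKM sum (-0.053) and ranged from -0.022 to 0.097 without single libraries; in adipocytes it was 0.011 with quantile normalization and -0.11 to 0.025 without single libraries. Without single libraries, Mlxip with differentiation in Aclyf/f cells ranged from 0.16 to 0.26, Txnip with differentiation in Acly-/- cells from -0.21 to 0.012, and the Arrdc4 difference between genotypes from -0.039 to 0.18. The causes were not tested. A pseudocount of 0.1 FPKM gave larger Mlxipl increases with differentiation, 4.03 in Acly-/- cells and 7.38 in Aclyf/f cells; the preadipocyte values lie near the floor.

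Counts of genes called in the 5 contrasts stayed within 1.5 times under every alternative. With the same FPKM sum, higher calls made up 34.5% of calls in preadipocytes and 36.4% in adipocytes, against 46.8% and 46.7% in the values reported. Of 1664 counts over the lists, 1583 stayed within 1.5 times. No pairing of libraries by replicate number was seen, which cannot show that same-numbered libraries were handled apart. The correlation of same-numbered deviations ranged from -0.414 to 0.147, and that of different-numbered ones from -0.168 to 0.416. Of 12 libraries, 0 correlated best with their own number. With a replicate block 6125 genes were called in adipocytes, against 6452 without it, the Txnip adjusted p there was 0.0432, and no call of the 5 genes changed, while 1 of the 2 lower thioredoxin calls there was lost. Depth limits Mlxipl in preadipocytes, where at most about 2.99 fragments a library were seen.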
